A study of Mus musculus with 4 samples.

Results

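Open regions that lie at the start of a noncoding gene, and away from the protein-coding starts used by the rule below, were described in mouse submandibular salivary gland organoids (mSGOs). A region entered this set when its midpoint was within 1 kb of the annotated 5′ end of a gene that is not protein-coding and over 1 kb from the 5′ end of every protein-coding gene whose strand is known (19666 of 21887). Of 32011 distinct regions in the deposited list, 961 met both conditions (3.00%, 95% Wilson interval 2.82 to 3.19%). A further 791 regions lay near a noncoding 5′ end but also within 1 kb of a coding one and were left out. Of the 961, 18 lay within 1 kb of an end of a coding gene of unknown strand and were kept. Also kept were 98 regions (10.2%) within 1 kb of a coding start that the rule did not use, which are described below. The remaining list held 8033 regions at coding starts (the 791 among them) and 23017 regions at no start. All intervals given here are 95% Wilson intervals and cover counting error only.

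The data were bulk ATAC-seq, in which the transposase Tn5 inserts sequencing adapters into DNA that is not packed by nucleosomes, so that reads pile up over open chromatin. The labels name 4 samples of non-irradiated mSGOs from C57BL/6 mice, grown in Matrigel in WRY medium (which carries Wnt3a, R-spondin1 and the kinase inhibitor Y27632): 2 of passage 1 and 2 of passage 2. Donor age was 12 weeks for 1 sample of each passage and 3 months for the other, and the study's methods state that the mice differed. One list of regions was deposited with the series and was taken to be the consensus list of all 4 samples. The study's methods give only a lower bound on the number of peaks. The distinct regions of the list fall short of that bound, while its lines, several of which can share a region, exceed it. No region had a value per sample, so the depth and the spread between samples are unknown and passages and ages could not be compared. Each region carried 4 measures from the authors' peak caller: the fold (signal over the local background at the strongest summit), the −log10 q of that summit, a score for the reproducibility between replicates (IDR, at most 1000), and its width.

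Noncoding genes are of several kinds. Long noncoding RNA (lncRNA) genes are mostly transcribed by RNA polymerase II from promoters built like those of coding genes, and some of them carry small RNAs in their introns. MicroRNAs (miRNAs) and small nucleolar RNAs (snoRNAs) are often cut from a longer transcript, so that the annotated 5′ end of the small gene is not where transcription starts, whereas small nuclear RNAs (snRNAs) have compact promoters of their own. Pseudogenes are copies of genes that lost their coding capacity, and a part of them is transcribed.

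Sequences of 6 lncRNA promoter windows are shown first, as examples of strong regions and of genes in the lists below: the 3 strongest regions that have a window in the sequence table, 1 snoRNA host, and 2 genes known from epithelial cells. Each is the RefSeq GRCm38.p6 sequence from 250 bases before to 50 bases after the annotated start, 5′ to 3′ on the strand of the gene. Capitals mark matches on either strand to short motifs of 11 factor families (SP/KLF, NF-Y, AP-1, TEAD, RUNX, AP-2, SOX, FOX, ETS, NRF1 and the TATA box), which are spelled out below beside their shares (NRF1 by name only), and adjoining or overlapping matches run together. A match is a run of letters and not a bound site. The windows are Gm26901 (chr1:7398047-7398346, minus strand), Gm13293 (chr2:11339239-11339538, plus strand), 4930471E19Rik (chr10:120636058-120636357, minus strand), Snhg8 (chr3:123508287-123508586, minus strand), Dancr (chr5:74092810-74093109, plus strand) and Mir205hg (chr1:193510161-193510460, minus strand).
Gm26901: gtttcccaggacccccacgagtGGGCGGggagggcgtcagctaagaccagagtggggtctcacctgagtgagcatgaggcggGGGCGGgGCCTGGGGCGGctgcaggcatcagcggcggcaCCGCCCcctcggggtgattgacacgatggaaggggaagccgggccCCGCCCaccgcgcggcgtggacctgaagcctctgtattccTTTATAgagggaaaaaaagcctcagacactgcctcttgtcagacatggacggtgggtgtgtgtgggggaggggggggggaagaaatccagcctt
Gm13293: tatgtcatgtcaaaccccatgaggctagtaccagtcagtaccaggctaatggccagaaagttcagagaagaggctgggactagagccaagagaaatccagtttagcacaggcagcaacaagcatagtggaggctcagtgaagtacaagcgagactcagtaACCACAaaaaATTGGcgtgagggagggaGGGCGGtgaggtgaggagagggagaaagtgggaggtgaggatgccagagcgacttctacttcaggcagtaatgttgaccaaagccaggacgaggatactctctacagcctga
4930471E19Rik: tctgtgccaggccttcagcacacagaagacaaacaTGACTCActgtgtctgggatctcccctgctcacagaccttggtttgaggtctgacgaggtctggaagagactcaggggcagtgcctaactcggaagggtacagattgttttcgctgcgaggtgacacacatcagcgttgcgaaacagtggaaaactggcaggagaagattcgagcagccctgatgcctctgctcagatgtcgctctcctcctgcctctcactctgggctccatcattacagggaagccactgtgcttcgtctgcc
Snhg8: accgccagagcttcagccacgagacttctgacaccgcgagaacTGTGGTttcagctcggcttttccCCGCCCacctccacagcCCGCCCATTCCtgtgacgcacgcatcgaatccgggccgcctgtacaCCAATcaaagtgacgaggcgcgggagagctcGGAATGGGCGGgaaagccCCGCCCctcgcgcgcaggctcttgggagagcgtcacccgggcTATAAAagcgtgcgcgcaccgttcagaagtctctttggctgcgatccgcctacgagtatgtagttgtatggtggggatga
Dancr: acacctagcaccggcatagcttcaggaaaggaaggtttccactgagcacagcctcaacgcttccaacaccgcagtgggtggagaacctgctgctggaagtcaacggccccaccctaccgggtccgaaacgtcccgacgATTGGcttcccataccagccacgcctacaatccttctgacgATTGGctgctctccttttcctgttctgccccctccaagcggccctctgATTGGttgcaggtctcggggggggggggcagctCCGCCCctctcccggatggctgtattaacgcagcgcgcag
Mir205hg: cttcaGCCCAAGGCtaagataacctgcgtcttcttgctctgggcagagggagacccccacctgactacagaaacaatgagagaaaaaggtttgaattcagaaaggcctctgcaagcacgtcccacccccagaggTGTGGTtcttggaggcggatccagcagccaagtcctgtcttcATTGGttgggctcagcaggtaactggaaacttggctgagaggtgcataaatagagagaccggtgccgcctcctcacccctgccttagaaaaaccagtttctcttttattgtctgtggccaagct

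Gm26901 held 5 SP/KLF matches and 1 TATA box match on the other strand in a window of 65.7% G+C. In contrast, 4930471E19Rik held 1 AP-1 match and none of the other 10 motifs. Snhg8, with an observed/expected CpG ratio of 1.04, held 4 SP/KLF matches, whereas Mir205hg, with a ratio of 0.243, held none. Dancr held 3 NF-Y matches.

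For the miRNA genes, mature sequences (RefSeq, GRCm38.p6) are shown for those that the lists below turn on and for the strongest regions, with the seed, bases 2 to 8, in capitals. The seed is the stretch that pairs with target mRNAs. They are miR-205-5p (chr1:193507503-193507524, minus strand), miR-200c-3p (chr6:124718324-124718346, minus strand), miR-141-3p (chr6:124717917-124717938, minus strand), miR-206-3p (chr1:20679055-20679076, plus strand), miR-7648-5p (chr15:90224360-90224379, plus strand) and miR-6387 (chr12:15801064-15801085, minus strand).
miR-205-5p: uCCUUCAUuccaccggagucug
miR-200c-3p: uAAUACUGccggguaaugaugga
miR-141-3p: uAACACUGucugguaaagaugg
miR-206-3p: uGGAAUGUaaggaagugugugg
miR-7648-5p: cCGCGUUCcgggcucggcgc
miR-6387: uGGAAUGGcuucccuuguguau

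Of 40 miRNA genes with a region of the set within 1 kb of their start, 38 were in the sequence table, with 59 mature sequences between them. No seed was shared among these 59. Set beside the other entries of the table, which is not complete, miR-206-3p shares its seed with miR-6349 and miR-6382, miR-200c-3p shares its seed with miR-200b-3p and miR-429-3p, and miR-141-3p shares its seed with miR-200a-3p, but the start of none of Mir200a, Mir200b and Mir429 had a region within 1 kb.

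Most regions of the set were at lncRNA genes: 741 of 961 (77.1%, 74.3 to 79.7%), at 682 genes. Pseudogenes came next with 88 regions (9.16%, 7.49 to 11.1%), followed by miRNA genes with 43, snRNA genes with 33, transcribed pseudogenes with 28 and snoRNA genes with 20. The last 8 regions were 4 at variable segments of immune receptor genes, which encode protein but are not annotated as protein-coding genes, and 4 at other RNA genes (3 annotated as miscellaneous RNA and 1 as a small cytoplasmic RNA). These counts depend on how many genes each class has. Of the 20636 noncoding genes with a known strand, 8245 were lncRNA genes and 8027 were pseudogenes. A region of the set was at 8.43% of these lncRNA starts but at 1.08% of these pseudogene starts (0.880 to 1.33%). Few of the lncRNA genes have a name that describes them: 687 of the 741 regions were at genes with a Gm, Rik or clone symbol. The median fold was 6.86 at these and 6.89 at the 54 regions with another symbol.

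The question that the gene ends can answer is whether open chromatin marked the start of a noncoding gene more often than its end. Among lncRNA genes with a known strand, 1287 of 8245 had a region midpoint within 1 kb of the 5′ end (15.6%, 14.8 to 16.4%), and 355 had one within 1 kb of the 3′ end (4.31%, 3.89 to 4.77%). Transcribed pseudogenes showed the same order, with 9.54% at 5′ ends (6.998 to 12.9%) and 1.80% at 3′ ends (0.877 to 3.68%, 388 genes). In both classes the intervals of the 2 ends were apart. Protein-coding genes had 40.7% at 5′ ends and 3.83% at 3′ ends, so the 3 classes differed at their starts and were within a few percent of each other at their ends.

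**Figure D1:**
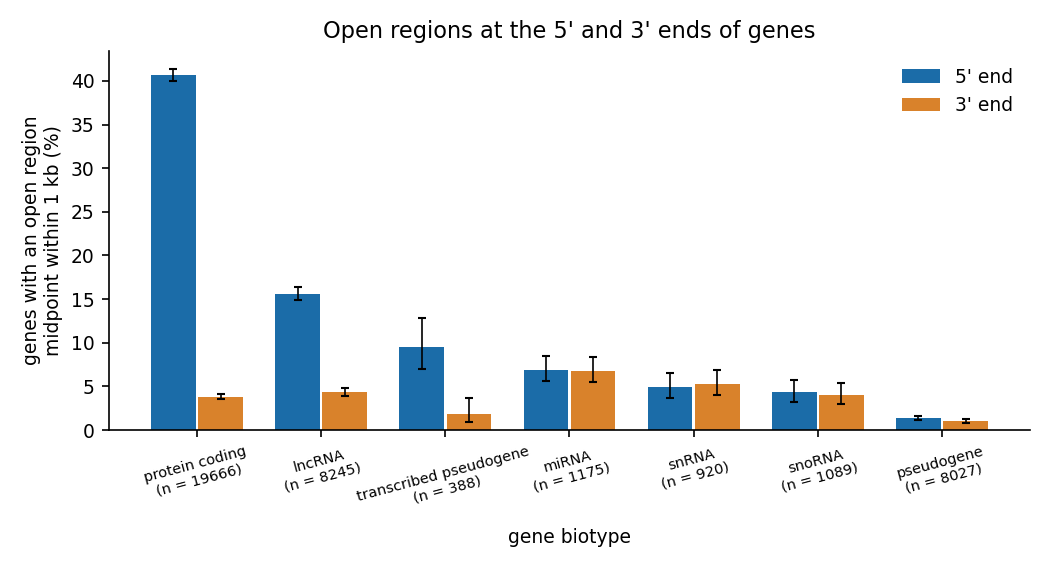
Share of genes (%, vertical axis) of each biotype with an open-region midpoint within 1 kb of the 5′ end (blue) or 3′ end (orange). Bars start at 0, error bars are 95% Wilson intervals and n is the number of genes with a known strand. Of the biotypes shown, only protein-coding genes, lncRNA genes and transcribed pseudogenes have a 5′ bar that stands clear of the 3′ bar.

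In pseudogenes without annotated transcription and in the 3 classes of small RNA genes, the shares at both ends were close. Such pseudogenes had 1.33% at 5′ ends and 1.05% at 3′ ends (8027 genes), and the intervals overlapped. For miRNA genes the shares were 6.89% and 6.81%, for snoRNA genes 4.32% and 4.04%, and for snRNA genes 4.89% and 5.22%. These small genes are much shorter than 1 kb, so that 1 region usually counts for both of their ends. The same can hold for short pseudogenes. The lengths of the pseudogenes counted here were not measured, but the 1921 without a strand had a median of 868 bp. The 67 genes of other noncoding classes had 20.9% at 5′ ends (12.9 to 32.1%) and 8.96% at 3′ ends (4.17 to 18.2%), with overlapping intervals. Counting only regions of the set, 695 lncRNA genes had one at their start (8.43%, 7.85 to 9.05%) and 921 of 20636 noncoding genes in all (4.46%, 4.19 to 4.75%). These are over 1 kb from the coding starts used by the rule, but not from every coding start. Of the 741 regions of the set at lncRNA genes, 84 lay within 1 kb of another one (11.3%). Among lncRNA ends over 2 kb from every coding start used by the rule, the shares were 9.31% at 5′ ends and 3.16% at 3′ ends.

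Regions were also centred differently on the starts of the different classes. At coding starts, 50.4% of midpoints (49.3 to 51.5%) were within 100 bp of the annotated 5′ end. Among classes with 20 or more regions, transcribed pseudogenes came closest to this, with 12 of 28 midpoints within 100 bp (42.9%, 26.5 to 60.9%) and 24 of 28 within 250 bp. At lncRNA genes the share within 100 bp was 27.1% (24.0 to 30.4%), and the median distance was 219 bp against 99 bp at coding starts. Pseudogene regions were spread over the whole window, with 10.2% within 100 bp and a median distance of 511.5 bp.

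**Figure D2:**
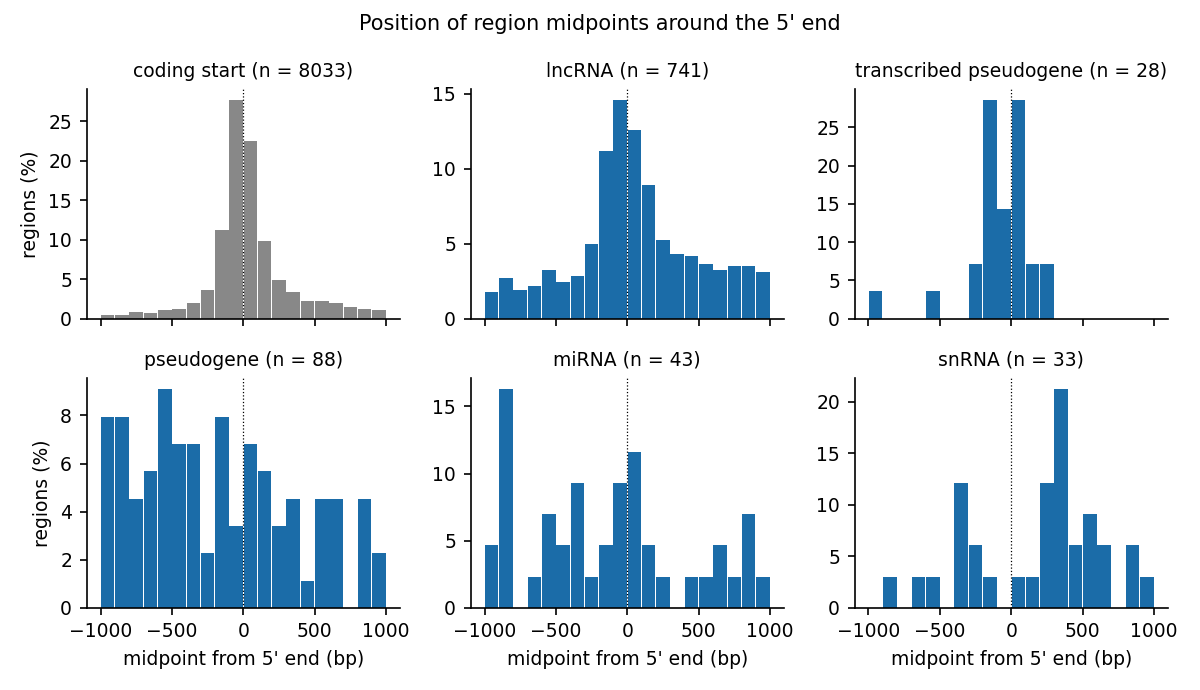
Position of region midpoints relative to the annotated 5′ end (horizontal axis, bp, in bins of 100 bp, downstream to the right), as a share of the regions of each class (vertical axis, %, with a scale of its own in each panel). Coding starts, lncRNA genes and transcribed pseudogenes have a peak at the start, pseudogene and miRNA regions are spread, and snRNA midpoints lie mostly downstream of the start.

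SnRNA genes stood apart from this pattern. The midpoints of their 33 regions lay at a median of 308 bp downstream of the 5′ end, and only 1 was within 100 bp of a start. The regions themselves overlapped the gene in 19 cases, covered the annotated start in 13 and did not reach the gene in 14. They were wide, with a median of 518 bp and 4 summits, against 412 bp and 2 summits over the whole set. Of these regions, 18 lay in 6 groups in which neighbours were at most 200 kb apart. How near the 920 snRNA genes with a known strand lie to each other was not counted, so the grouping is not read as a trait of the regions. The largest group, of 6 regions, lay at chr1:72226342-72256037 around the snRNA genes Gm25360, Gm23472, Gm24497 and Gm25939, with folds from 4.29 to 8.18. Gm24497 and Gm25939 had 2 regions each. The group at chr11:101641868-101659034 held Gm24950, Gm23971 and Rnu2-10, a gene of the U2 spliceosomal RNA. Copies of snRNA genes can be near-identical, as can pseudogenes and their parent genes, and how reads that match several copies were assigned is not given in the sources used here, so values at these genes are uncertain.

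In strength, the median of the set was closer to that of regions away from any start than to that of regions at coding starts. Its median fold was 6.89 (quartiles 5.49 and 9.16), against 6.87 at no start, 7.90 at coding starts and 7.11 in the whole list. The highest IDR score, 1000, was reached by 43.4% of the set (40.3 to 46.5%), by 40.9% of regions at no start (40.3 to 41.5%) and by 57.2% of those at coding starts (56.1 to 58.2%). In bulk tissue, a region open in few cells and one weakly open in many cells cannot be told apart by fold. The median width was 412 bp, between 387 bp at no start and 456 bp at coding starts. Among the 1000 regions with the highest fold, 22 were of the set (2.20%, 1.46 to 3.31%). Among the 1000 with the highest −log10 q, 24 were (2.40%, 1.62 to 3.55%). Both intervals include the 3.00% of the whole list. By fold, the intervals of the top 500 (1.40%, 0.680 to 2.86%) and the top 5000 (2.48%, 2.08 to 2.95%) lay below it. By −log10 q, those of the top 500 (2.00%, 1.09 to 3.64%) and the top 5000 (2.68%, 2.27 to 3.17%) included it.

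**Figure D3:**
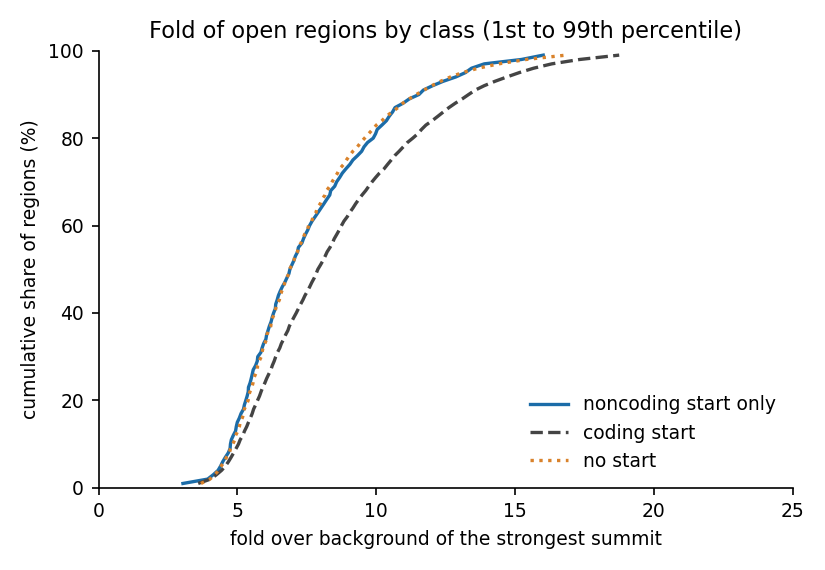
Cumulative share of regions (vertical axis, %) up to a given fold over background at the strongest summit (horizontal axis, linear), from the 1st to the 99th percentile. The curve of regions at noncoding starts only (solid) runs along that of regions at no start (dotted), and the curve of regions at coding starts (dashed) lies to the right, with medians of 6.89, 6.87 and 7.90.

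Within the set, in classes with 20 or more regions, the median fold ranged from 6.35 at snRNA genes and 6.54 at snoRNA genes, over 6.86 at lncRNA and 6.96 at miRNA genes, to 7.46 at pseudogenes and 7.51 at transcribed pseudogenes, whereas quartile ranges overlapped (5.44 to 9.18 at lncRNA genes, 5.73 to 9.68 at pseudogenes). The 4 regions at other RNA genes had a median of 9.58. Regions at snoRNA genes were the narrowest, with a median of 284.5 bp. Fold changed little with distance to the start up to 500 bp: the medians were 7.03 within 100 bp, 7.11 from 100 to 250 bp and 7.06 from 250 to 500 bp. Beyond 500 bp, where 303 regions lay, the median was 6.43.

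Some regions of the set lay near a coding start that the rule did not use. The rule used the outermost start of each coding gene with a known strand, and 98 regions (10.2%, 8.44 to 12.3%) lay within 1 kb of another coding start in the RefSeq promoter table. Their median fold was 8.14 and 58.2% had an IDR score of 1000, close to regions at coding starts. For 83 of them this was a further start of a gene that the rule did use (median fold 7.61, IDR score of 1000 in 55.4%, 44.7 to 65.6%), and for 15 it was the start of a coding gene left out of the rule for want of a strand (median fold 11.6, 11 of 15 with an IDR score of 1000). The other 863 regions had a median fold of 6.82, and 41.7% had the highest score, but the nearest coding gene of 207 of the 961 had no window in that table, so not all of these could be checked. Among the 754 whose nearest coding gene had one, 96 were within 1 kb of such a start, with a median fold of 8.14, and 658 were not, with 6.86.

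Gm51663 had the highest fold of the set, 25.6 (−log10 q 173, chr1:163779348-163779964, GRCm38). This lncRNA gene lies inside Kifap3 on the opposite strand, and the midpoint was 73 bp from an alternative start of Kifap3, which encodes a subunit of a kinesin motor. Gm26901 followed with a fold of 20.2 at chr1:7397832-7398454 and had the highest −log10 q, 195, in the set. Its region was centred 47 bp upstream of the start and 311066 bp from the nearest coding start, that of Pcmtd1. Gm13293 had a fold of 19.1 at chr2:11338967-11339521. Both of the latter, therefore, were far from coding starts, unlike Gm51663.

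4930471E19Rik had a fold of 17.9 (−log10 q 168) at chr10:120636026-120636563, and its nearest coding start, at 159825 bp, was that of Hmga2, which encodes a chromatin protein of embryonic and progenitor cells. Snhg8, a snoRNA host gene, had a fold of 17.6 (−log10 q 171) at chr3:123508079-123508927, in a region of 849 bp with 4 summits. These 5 regions had the 5 highest folds and the 5 highest −log10 q values of the set, and each had an IDR score of 1000.

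Among miRNA genes, Mir7648 had the highest fold, 16.2 (chr15:90224047-90224813), and the region covered its whole hairpin, but 119 bp from the midpoint lay the start of Alg10b, a coding gene without a strand in the rule. Mir6387 had a fold of 13.8 in a region of 995 bp with 6 summits (chr12:15800513-15801507) that also covered the hairpin. It lies in Trib2, which encodes a pseudokinase, on the same strand and 15952 bp from the start of that gene. Mir3970 had a fold of 12.1, 360505 bp from a coding start. More often the region lay beside the small gene: of 40 pairs of region and hairpin, the region covered the hairpin in 10, covered a part in 4 and did not reach it in 26.

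The strongest pseudogene regions were at Gm15765 (fold 15.8, inside Txndc16 on the opposite strand), Ifi203-ps (15.6, in the interferon-inducible Ifi200 gene cluster) and Gm4799 (14.4, with the midpoint 989 bp from the start). Transcribed pseudogenes were led by Gm16016 with a fold of 16.0. It lies inside Wwtr1, the gene of the Hippo pathway coactivator TAZ, on the opposite strand and 48558 bp from the Wwtr1 start. Ces2d-ps, in a cluster of carboxylesterase genes, had a fold of 13.3, and 4632415L05Rik had 11.1 with its midpoint 5 bp from the start. Midpoints were 160, 198 and 5 bp from the start at these 3 transcribed pseudogenes and 176, 327 and 989 bp at the 3 pseudogenes.

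Gm23143 led the snRNA genes with a fold of 13.4 in a region of 788 bp, followed by Gm25101 with 11.6 and Gm25703 with 10.6, the latter 5909 bp from the start of Il1a, an epithelial alarmin gene. Snord59a led the snoRNA genes with 12.6, but its midpoint was 991 bp from the snoRNA and 156 bp from the start of Atp5b, which encodes a subunit of the mitochondrial ATP synthase and had no strand in the rule. Gm22023 (12.1) and Gm22830 (9.97) followed, with midpoints 905 and 872 bp from their starts. At immune receptor segments the highest fold was 8.83, at Trav13-2, with the midpoint 950 bp from the start, followed by Igkv1-135 with 7.68 and Ighv1-47 with 6.54. The 4 regions at other RNA genes were led by Gm5486 (13.5) and Rn7s2 (10.9), and Gm4633, 240 bp from an alternative start of Cd47, had 8.27. None of the 3 strongest regions at snoRNA genes was centred on the snoRNA.

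Several regions could share 1 start. Most noncoding genes with a region of the set had 1 (848 genes), while 70 had 2 and 3 had 3. At 2900060B14Rik the 3 folds were 3.63, 10.5 and 6.91, at Mir5620 they were 11.8, 10.3 and 7.22, and at Zbtb11os1 they were 10.3, 4.81 and 7.84. All 3 regions of Mir5620 lay within 1 kb of an alternative start of Clcn4, and 2 of those of Zbtb11os1 within 1 kb of an alternative start of Zbtb11. In these genes the strongest region was therefore accompanied by weaker ones within 1 kb of the same start. Conversely, 33 regions had 2 or 3 noncoding starts within 1 kb.

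SnoRNA host genes had a region of the set at 10 of 21 starts, beside 8.43% of all lncRNA genes. These genes carry snoRNAs, which guide chemical modification of ribosomal and spliceosomal RNA, in their introns. Of the other 11, 5 had a region that was also at a coding start (Gas5, Snhg1, Snhg10, Snhg18 and Zfas1) and 6 had none. The strongest were Snhg8 with a fold of 17.6, Snhg6 with 15.2 and Dancr, an lncRNA known to keep epidermal progenitors undifferentiated, with 12.0. Snhg15 and Epb41l4aos had 9.48 and 9.47, Snhg5 had 8.57 and Snhg9 had 7.49, the latter 62 bp from an alternative start of the ribosomal protein gene Rps2. The lowest 3 were Snhg16 with 6.83, Snhg3 with 6.37 and Snhg12 with 5.86, so 7 of the 10 were above the median of the whole set. In 8 of the 10 the midpoint was at most 106 bp from the start, the exceptions being Snhg8 (167 bp) and Snhg5 (191 bp).

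Broadly expressed lncRNA genes had a region of the set at 6 of 13 starts (8.43% of all lncRNA genes), all but 1 with a fold below the median of the set. Oip5os1, whose transcript binds miR-7, had 8.01, whereas Firre had 6.21 and Jpx 5.56, both of which are genes of chromosome X. Malat1, whose RNA gathers in nuclear speckles, had 4.93 with the midpoint 894 bp from its start, and Neat1, the scaffold of paraspeckles, had 3.29 with the midpoint at 101 bp. Dleu2, the host of miR-15a and miR-16-1, had 4.68. Tug1 had a region that was also at a coding start, and Norad, Pvt1, Miat, Lncpint, Trp53cor1 and Ftx had none.

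**Figure D4:**
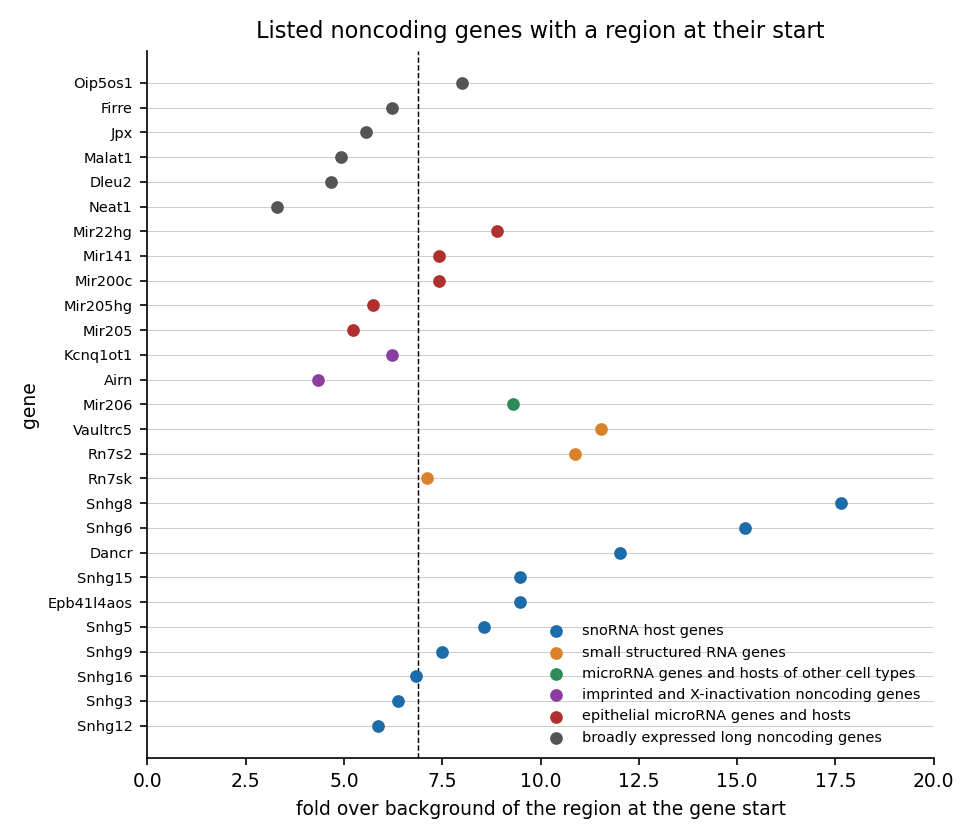
Fold over background (horizontal axis) of the region at the start of each listed noncoding gene that had one (vertical axis), coloured by list, with the region nearest to the start taken where there were several. The dashed line is the median fold of the set, 6.89. SnoRNA host genes reach from 5.86 to 17.6, and broadly expressed lncRNA genes from 3.29 to 8.01. Mir200c and Mir141 share 1 region.

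Epithelial miRNA genes and their hosts had a region of the set at 5 of 29 starts, which rest on 4 regions. These were 3 of 24 miRNA genes on 2 regions, beside 40 of all 1175 miRNA genes (3.40%), and 2 of 5 lncRNA hosts, beside 8.43% of all lncRNA genes, numbers too small to read a difference from. MiR-205 is known from basal epithelial cells, and both its hairpin gene and its host had one: Mir205hg with a fold of 5.74, 29 bp from the start (chr1:193510106-193510373), and Mir205 with 5.22, at 905 bp (chr1:193508251-193508620). Mir200c and Mir141, which hold down the mesenchymal factors Zeb1 and Zeb2, shared 1 region with a fold of 7.42 (chr6:124718798-124719105), 561 bp from the former. Mir22hg had 8.89 with the midpoint at 145 bp. The other 24 had no region within 1 kb, among them Mir21a, Mir203 and Mir31. Since these small genes are cut from longer transcripts, a region at the host start further away than 1 kb was not counted.

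Genes and hosts of miRNAs known from blood, endothelial, mesenchymal, muscle, neural and liver cells had a region at 1 of 32 starts. This was 1 of 26 miRNA genes, near the share of all miRNA genes (3.40%), and 0 of 6 lncRNA genes (8.43% of all lncRNA genes). The only one was Mir206, known from skeletal muscle, with a fold of 9.29 in a region that covered the hairpin (chr1:20678867-20679230) and a second of 4.05 nearby. Mir133b, another muscle miRNA gene of the same chromosome, had no region within 1 kb, nor had Mir1a-1, Mir1a-2, Mir133a-1 and Mir133a-2. Defining genes of blood cells (Mir142, Mir223, Mir155 and Mir150) and of endothelium (Mir126a and Mir126b) had none, nor had Mir143 and Mir145a of smooth muscle. As the list is one of regions called open, the absence of a region sets no level for these starts.

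Imprinted and X-inactivation genes had a region of the set at 2 of 10 starts, a number too small to set beside the 8.43% of all lncRNA genes. Kcnq1ot1, the antisense RNA of the Kcnq1 imprinted domain, had a fold of 6.23, and Airn, antisense to Igf2r, had 4.34 with its midpoint 8 bp from the start. A second region of the set within 1 kb of the Airn start had a fold of 5.64. H19, Meg3, Rian, Mirg, Peg13, Snhg14, Xist and Tsix had no region. Noncoding genes beside developmental factor genes, such as Hotair, Hottip and Sox2ot, had a region of the set at 0 of 20 starts, and the 2 that had any, Foxd2os and Tbx3os1, had it at a coding start as well. With 20 genes and a share of 8.43% over all lncRNA genes, a count of 0 says little about this list. Small structured RNA genes had one at 3 of 11, beside 4.46% of all noncoding genes: Vaultrc5, a vault RNA, with 11.5, Rn7s2, a gene of the signal recognition particle RNA, with 10.9, and Rn7sk, whose RNA holds the elongation factor P-TEFb inactive, with 7.12. Rmrp, Rpph1, Rn7s1 and Rnu12 had a region that was also at a coding start, and Terc, Rny1, Rny3 and Rnu11 had none.

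With respect to coding genes, 301 regions of the set lay inside one (31.3%, 28.5 to 34.3%), against 50.3% of regions at no start (49.7 to 51.0%). The set is tied to annotated starts, so its share depends on where these lie. Among lncRNA starts over 1 kb from a coding start, 199 of 688 with a region lay inside a coding gene of known strand (28.9%, 25.7 to 32.4%). Of those without a region, 1569 of 6440 did (24.4%, 23.3 to 25.4%). Of lncRNA regions inside a coding gene, 223 of 232 had the lncRNA on the opposite strand (96.1%). This share follows the annotation: among lncRNA starts inside a coding gene and over 1 kb from a coding start, 197 of 199 with a region were opposite to the host, and so were 1513 of 1569 without one. MiRNA regions showed the other arrangement, with 32 of 43 inside a coding gene and 24 of these 32 on its strand. The same shares over all miRNA genes were not counted, so this is not read as a trait of the regions. The median distance to the nearest coding start was 29787 bp, against 37944 bp for regions at no start. Only 135 regions were 1 to 5 kb from a coding start, and 29 of these had the noncoding gene pointing away from the coding one, head to head.

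Chromosome X held 10 regions of the set, at 9 of its 1200 noncoding starts (0.75%, 0.395 to 1.42%), against 4.71% of 19351 autosomal ones (4.42 to 5.02%). Pseudogenes made up 801 of the 1200. Of its lncRNA starts, 18 of 157 had a region within 1 kb (11.5%, 7.38 to 17.4%), against 15.7% of 8062 autosomal starts (14.96 to 16.6%), and these intervals overlapped. Protein-coding starts differed more, with 23.9% on X and 42.0% on autosomes. Of the 801 pseudogene starts on X, 1 had a region (0.125%, 0.022 to 0.704%), against 1.48% of 7178 on autosomes (1.22 to 1.78%).

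Base composition was compared over the 300-base promoter windows of lncRNA genes over 1 kb from the coding starts used by the rule. In the 377 windows overlapped by a region of the set, the median G+C content was 53.3% and the median CpG ratio 0.456. In 7645 windows with no region within 1 kb these were 47.3% and 0.215, and in 6578 coding windows overlapped by a region they were 61.7% and 0.808. CpG-rich windows, with a ratio of at least 0.6, made up 37.1% of the first group (32.4 to 42.1%), 5.78% of the second and 82.4% of the third. Of the 377, 47 had another coding start of the promoter table within 1 kb, and in the remaining 330 the CpG-rich share was 30.9% (26.2 to 36.1%). Open lncRNA windows were therefore between the other 2 groups, and were spread over low and high ratios where those had 1 peak each.

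**Figure D5:**
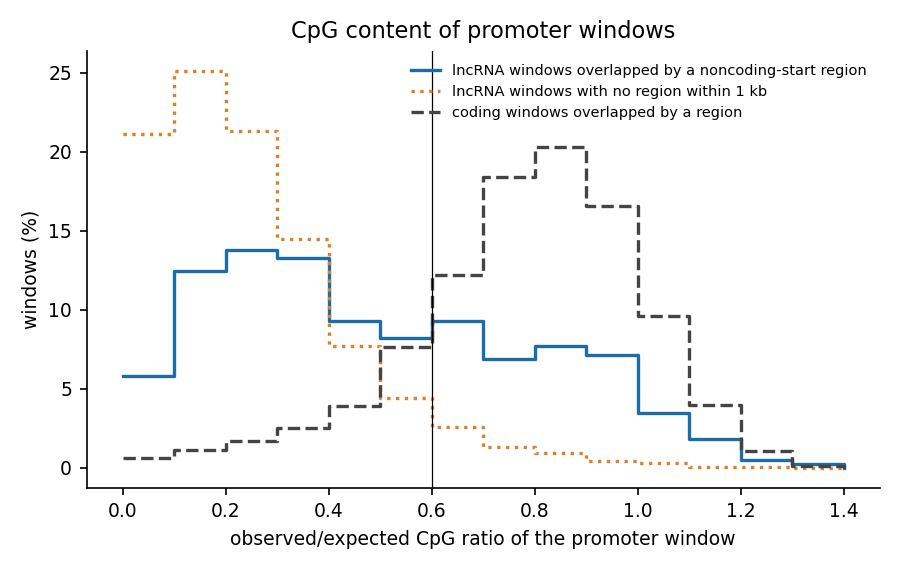
Distribution of the observed/expected CpG ratio (horizontal axis, bins of 0.1) of promoter windows as a share of each group (vertical axis, %). The vertical line marks a ratio of 0.6. Windows of lncRNA genes overlapped by a noncoding-start region (solid) spread from low to high ratios, with 37.1% at or above the line, against 5.78% of lncRNA windows without a region (dotted) and 82.4% of open coding windows (dashed).

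Motif shares followed the same groups in part. SP/KLF motifs (GGGCGG) were in 42.2% of lncRNA windows overlapped by the set (37.3 to 47.2%), 9.18% of those without a region, 70.7% of open coding windows and 35.9% of all windows. ETS motifs (CCGGAAG) were lowest without a region as well, at 7.69%, 2.76%, 22.8% and 9.14% of the 4 groups. AP-2 motifs (GCCNNNGGC) had 16.7%, 7.97%, 24.96% and 16.5%, and NRF1 motifs 1.33%, 0.144%, 2.49% and 0.981%. All 4 motifs are rich in G and C, and the median G+C content was likewise highest in open coding windows and lowest in lncRNA windows without a region; its part in these shares was not tested. NF-Y motifs (CCAAT) were in 37.4% of open lncRNA windows, 36.4% of those without a region and 44.7% of open coding windows (38.02% of all).

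AP-1 motifs (TGANTCA) were, unlike these, rarer in open coding windows than in both kinds of lncRNA window. They were in 17.2% of lncRNA windows overlapped by the set (13.8 to 21.4%), 9.97% of those without a region, 4.79% of open coding windows and 7.92% of all windows. TEAD motifs (CATTCC) were in 19.9%, 17.4%, 11.3% and 14.7%. TATA boxes (TATAAA) were in 9.55% of open lncRNA windows and in 17.6% of those without a region, with 6.16% of open coding windows and 14.2% of all. RUNX motifs (TGTGGT) were in 19.1% of open lncRNA windows, 21.2% of those without a region and 16.9% of all. For SOX motifs (ACAAAG) these shares were 21.0%, 24.0% and 18.7%, and for FOX motifs (TGTTTAC) 3.98%, 4.98% and 3.52%. The last 3 families thus differed little between open lncRNA windows and those without a region.

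Open lncRNA windows divided further by CpG content. The 140 CpG-rich windows had a median fold of 8.10, and 77.1% held an SP/KLF motif but 7.14% an AP-1 motif. In the 237 CpG-poor windows the median fold was 6.95, 21.5% held an SP/KLF motif and 23.2% an AP-1 motif. Of the CpG-rich windows, 38 had another coding start of the promoter table within 1 kb, against 9 of the CpG-poor ones. Without these, a choice made after the data were seen, the median folds were 7.98 (102 windows) and 6.90 (228 windows), SP/KLF motifs were in 73.5% and 20.2%, and AP-1 motifs in 8.82% and 24.1%. Since GGGCGG contains a CpG and TGANTCA none, the split itself bears on these shares. NF-Y motifs were similar in both, at 39.3% and 36.3%. Among the windows printed above, Snhg8 and Dancr are of the CpG-rich kind, and 4930471E19Rik, which holds an AP-1 match, Gm13293 and Mir205hg are of the CpG-poor kind. Gm26901, with a ratio of 0.582, was just under the line.

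At the edges of the rule, the last regions inside the limit to a noncoding start were at Gm22290 (1000 bp, fold 6.43) and Gm16146 (999 bp, 8.88). The first outside were at Gm36025 and Bod1-ps (both 1002 bp, folds 6.34 and 10.2). At the limit to a coding start, Gm26725 (1007 bp from Rbm47, fold 9.53) and Mir1956 (1036 bp from Eif4e, 9.97) were just inside the set, although another Rbm47 start lay 31 bp and another Eif4e start 41 bp from these midpoints, and Gm34736 (987 bp from Lemd2, 5.22) was just left out.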

How the data were processed

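The 4 samples of mSGOs of salivary gland were profiled by ATAC-seq. Alignment and peak calling were done by the authors in the ENCODE ATAC-seq pipeline, whose version and filters are not given in the sources used here. Per the study's methods, all organoid samples went into 1 consensus list. The deposited list was taken to be it, although its regions are fewer than the lower bound on peaks stated there. The deposited list gives, for each summit, a fold (ratio) over background, and −log10 p and −log10 q values, and a deposited IDR score from 540 to 1000. No depth is given.

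Its 69545 lines were joined by chromosome, start and end into 32011 regions, each with the values of its strongest summit, and the midpoint gave the position. The submitters' processing notes name GRCm39 and HOMER; the list was read as GRCm38, since 15.6% of lncRNA 5′ ends had a region within 1 kb in GRCm38 but 3.92% of the same genes' GRCm39 ends did. Gene ends and biotypes came from RefSeq (GRCm38.p6). Strand, absent there, was taken from GENCODE by symbol and chromosome for 40302 of 49943 genes (20636 of 28056 noncoding, 19666 of 21887 coding). Genes without a strand were left out. In a comparison over 22110 genes, 125 had the other strand in the RefSeq promoter table.

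Shares have 95% Wilson intervals. No test was made: regions are not replicates and no value per sample was used. Named genes were those of 7 lists, the 3 highest folds per biotype, the 5 highest −log10 q values, genes with 3 regions and those at the limits of the rule, 1 of which is not reported here. The genes of 2 snRNA groups and those named as neighbours, hosts or members without a region were added after their values were seen. The set and the lists were chosen with earlier results of these data known. The rule was tested on simulated positions. Figures used matplotlib 3.10.9, intervals scipy 1.17.1, and tables pandas 2.3.3 and numpy 2.4.6, under Python 3.11.15.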

Additional observations from a re-analysis of the deposited data

How the results depend on the processing

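The median fold, the share of lncRNA genes in the set and the number of regions depended on the choices as follows, as did the shares of starts, windows and gene ends. Values not given stayed within the counting interval of the main value or, for the number of regions, within 1.5 times it, other than 12 for small RNA genes: the miRNA shares ranged from 3.06% to 11.7% (5′) and from 2.55% to 11.6% (3′), lowest where the region must cover the start and highest at 2 kb, and regions covering the start were at miRNA genes in 3.11% and at snoRNA genes in 1.33%. With 500 bp for both limits, 80.6% of regions were at lncRNA genes and 6.10% at pseudogenes, 3.36% of noncoding starts had a region, and lncRNA ends had one in 12.4% (5′) and 1.90% (3′). With 2 kb, these were 72.1%, 13.7%, 6.01%, 18.9% and 8.98%, with 28.1% of regions in coding genes and 4.64% of transcribed pseudogene 3′ ends. With a distance of over 5 kb from coding starts, 3.84% of noncoding starts had a region, 24.9% of regions lay in coding genes, and 32.1% of open lncRNA windows were CpG-rich and 36.4% held an SP/KLF motif. Without pseudogenes, 87.6% of regions were at lncRNA genes and 6.72% of starts had one.

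Keeping regions with a −log10 q of at least the list's median left 470 regions with a median fold of 9.23 at 2.34% of starts, with 9.55% of lncRNA 5′ and 2.21% of 3′ ends and 5.93% and 0.516% for transcribed pseudogenes. An IDR score of 1000 left 417 regions with a median fold of 9.56 at 2.06% of starts, and the end shares were 8.66%, 2.06%, 5.15% and 0.516%, with SP/KLF motifs in 47.7% of windows. Asking that the region cover the start left 450 regions with a median fold of 7.39 at 2.23% of starts, of which 81.3% were at lncRNA genes, 5.11% at pseudogenes and 5.11% at transcribed pseudogenes. The lncRNA end shares were then 10.1% and 0.424%, and the 3′ share of transcribed pseudogenes 0.258%. Counting every line gave 2213, and the weakest line of a region gave a median fold of 4.53.

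Choices added after the data were seen had these effects. Leaving out regions near any coding start of the RefSeq promoter table gave 4.02% of starts, 24.7% in coding genes, 30.9% CpG-rich windows and 36.7% with an SP/KLF motif. Taking strand from that table where it gives one raised the set to 1131 regions, 81.0% at lncRNA genes, with a region at 14.2% of lncRNA 5′ ends. The 5′ share was above the 3′ share for lncRNA genes and transcribed pseudogenes in each of the 7 alternatives run on it. For miRNA genes both shares were equal at an IDR score of 1000.

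No paired analysis was possible because no region has a value per sample, and for the same reason leaving out a replicate was not run. Without depth, a start without a region and a start open below the limit of detection cannot be told apart. Mappability was not analysed here.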

Other observations

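Transfer RNA genes, which RNA polymerase III transcribes from promoters inside the gene, nearly all lacked a strand and so were outside the rule. Of 408 tRNA genes, 91 had a region midpoint within 1 kb of the middle of the gene (22.3%, 18.5 to 26.6%). Over all noncoding genes with a strand, 7.86% had one within 1 kb of the 5′ end (7.51 to 8.24%). That is not the same point as the middle, and both shares count regions that were also at coding starts. The 91 tRNA genes had 71 distinct regions, of which 52 were over 1 kb from every coding start. These 52 had a median fold of 6.20, and 16 of them had an IDR score of 1000. Among these 52, 13 were also in the set through another noncoding gene. tRNA genes have near-identical copies, so these values are uncertain.

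Of the lncRNA genes without a strand, 526 of 4491 had a region within 1 kb of either end (11.7%, 10.8 to 12.7%). Those genes were not described above, since which end is the start was not known.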
